A study of Homo sapiens with 6 samples.

Results

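The HOX cluster genes of MiaPaCa2 cells were examined across 6 RNA-seq libraries. Every row of the gene count table whose symbol was HOXA, HOXB, HOXC or HOXD followed by a number was a member, which gave 39 genes of 42381 rows: 11 of the HOXA cluster, 10 of HOXB, 9 of HOXC and 9 of HOXD. MiaPaCa2 is a human line of pancreatic ductal adenocarcinoma (PDAC) with mesenchymal features. The 3 control libraries, labelled WT, came from MiaPaCa2 cells that carry CasRx, a Cas13d nuclease that cuts RNA and was brought in with a transposon, but no guide. The 3 libraries labelled KD came from the same CasRx cells with a lentiviral guide, stably expressed, against PPP2R1A, the scaffold subunit of the protein phosphatase PP2A. All 6 libraries thus share the nuclease and the cell line, and the replicates were collected over 3 weeks. The study describes lentiviral transduction and puromycin selection for the guide cells, and these steps cannot be told apart from the knockdown here.

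HOX genes encode homeodomain transcription factors that give cells their position along the body axis. In mammals they lie in the clusters A to D, are switched on from the low numbers to the high ones along each cluster during development, and keep much of that pattern in adult tissue and in cell lines derived from it. Polycomb complexes hold clusters off by histone modification, Trithorax-type methyltransferases hold them on, and retinoic acid activates the low-numbered genes in the embryo. The proteins bind DNA with partners of the TALE class, such as PBX and MEIS.

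The homeobox is the shared part of these genes, 180 bases that encode the DNA-binding homeodomain. It is shown for 3 genes on which the results below turn, HOXA13, HOXB9 and HOXC6, because reads can be told apart only where such copies differ. Capitals mark the 18 bases that encode the most conserved run of the helix that reads DNA, and the sequences were taken from GENCODE v29 transcripts.
HOXA13: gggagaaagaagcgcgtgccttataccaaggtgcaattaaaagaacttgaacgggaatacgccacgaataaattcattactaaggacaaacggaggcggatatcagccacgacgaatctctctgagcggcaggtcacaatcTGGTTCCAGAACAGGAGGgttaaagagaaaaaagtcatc
HOXB9: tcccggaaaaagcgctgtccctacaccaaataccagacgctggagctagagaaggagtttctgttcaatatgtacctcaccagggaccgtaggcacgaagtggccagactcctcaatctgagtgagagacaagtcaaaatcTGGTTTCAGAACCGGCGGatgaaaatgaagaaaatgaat
HOXC6: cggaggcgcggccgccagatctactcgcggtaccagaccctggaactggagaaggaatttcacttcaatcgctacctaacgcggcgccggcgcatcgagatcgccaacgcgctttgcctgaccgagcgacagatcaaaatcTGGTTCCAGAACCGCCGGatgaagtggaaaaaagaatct
Among the other 38 homeoboxes, the closest to HOXA13 was that of HOXC13 with 76.1% identical bases, and the closest to HOXC6 was that of HOXA6 with 86.7%. The closest to HOXB9 was that of HOXD9 (84.4%). Over whole transcripts, the longest exact stretch that HOXA13 shared with any other HOX gene was 23 bases, and that of HOXB9 was 40. HOXC6 differed from these, with 484 bases in common with HOXC4 and 305 with HOXC5, whose transcripts overlap at this locus, so the split of reads among HOXC4, HOXC5 and HOXC6 is uncertain. In the deposited table, HOXB3 to HOXB6 also share 1 assembled locus, HOXB8 and HOXB9 another, and so do HOXA3, HOXA4 and HOXA6, so that reads of one gene may be listed under its neighbour.

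The promoter is shown for HOXA13, the HOX gene with the largest fold change in the first comparison below, with its CG dinucleotides in capitals. The window is the 250 bases before the start of the gene in RefSeq (GRCh38.p14, chr7:27200092-27200341, minus strand).
HOXA13 promoter: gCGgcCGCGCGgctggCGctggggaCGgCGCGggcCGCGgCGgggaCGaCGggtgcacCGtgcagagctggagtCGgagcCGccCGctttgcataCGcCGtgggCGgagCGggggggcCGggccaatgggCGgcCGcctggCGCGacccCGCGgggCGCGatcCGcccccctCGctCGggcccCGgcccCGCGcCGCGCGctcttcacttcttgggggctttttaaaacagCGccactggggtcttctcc
It held 40 CG dinucleotides, a number reached by 2.16% of the 35116 promoter windows of the same length. The median was 11 over all windows and 19 over the 27 windows of 20 HOX genes. The letters TATAAA, searched on both strands, were not in this window, while 10.7% of all windows held them.

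Levels are given as counts-per-million (CPM) values. The targeted gene was read first. PPP2R1A stood at 590, 623 and 647 CPM in the 3 controls. Knockdown 1 and knockdown 2 had 143 and 142 CPM, and the library labelled knockdown 3 had 544. Knockdown 1 and 2 were thus well below every control, while the library labelled knockdown 3 was near the controls and is named by its label throughout. The study left this library out because its knockdown was weaker at the latest time point, and describes it as of a higher passage. Total counts per library were 28499214 to 45040033, so that 3 counts, the upper limit that a count of 0 allows, correspond to 0.0638 to 0.108 CPM, a limit that covers counting error only. Control 3 also stood apart from the other controls. Of 15386 genes, 1023 to 1493 were at least 4-fold apart between it and each of the other 5 libraries (CPM with a prior count of 2). Between control 1 and control 2 the number was 481. Such distances were not particular to control 3, since control 1 and 2 were 1078 to 1188 genes apart from knockdown 1 and 2. The library labelled knockdown 3 was 383 and 425 genes apart from control 1 and 2, and 990 and 981 from knockdown 1 and 2. HOX levels are therefore given by library, and the first comparison leaves out both control 3 and the library labelled knockdown 3.

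The line was checked against markers of its own and other cell types. Of 6 mesenchymal markers, the summed level was 3779 to 10663 CPM, almost all of it VIM, with CDH2 and TWIST1 at 0 in all libraries. Of 8 epithelial markers, the sum was 1385 and 1636 CPM in control 1 and 2, 1367 in the library labelled knockdown 3, 4054 in control 3 and 8068 and 9281 in knockdown 1 and 2, and it was almost entirely the keratins KRT8, KRT18 and KRT19, while OVOL1 and GRHL2 were at 0. The 7 fibroblast markers summed to 12 to 109 CPM with LUM at 0, highest in control 3 and knockdown 1 and 2 through COL3A1. The 6 leukocyte markers summed to at most 5.78 CPM, with PTPRC and CD3E at 0. That maximum was in control 3, through LYZ at 5.44 CPM, which was at 0 in the other libraries. The 5 endothelial markers summed to 60.6 and 37.6 CPM in knockdown 1 and 2 through CDH5 and to at most 3.68 elsewhere, with PECAM1, TEK and KDR at 0. In bulk RNA, fewer cells with a transcript and less of it per cell cannot be told apart.

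Of the 39 HOX genes, 20 had a count in MiaPaCa2 cells and 19 had none in any library: HOXA4, HOXA5, HOXA6, HOXA9, HOXA10, HOXB1, HOXC9 to HOXC13, and HOXD1, HOXD3, HOXD4, HOXD8 to HOXD11 and HOXD13. A further 3 stayed under 10 counts in every library. HOXA7 had 6 counts in knockdown 1 and none elsewhere, HOXD12 had 3 and 7 in knockdown 1 and 2 and none elsewhere, and HOXC4 had 0 to 7. The other 17 reached 10 counts in at least 1 library, and 11 of them did so in all 6. The HOXD cluster was thus represented by HOXD12 alone, at no more than 0.149 CPM.

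The detected genes fell into separate stretches of each cluster. In the HOXA cluster these included HOXA2 and HOXA3 at one end and HOXA11 and HOXA13 at the other, with the genes between them at or near 0. In the HOXC cluster only the stretch from HOXC4 to HOXC8 had counts. In the HOXB cluster, HOXB2, HOXB3, HOXB7, HOXB9 and HOXB13 had counts in every library, whereas HOXB4, HOXB5, HOXB6 and HOXB8 were listed at 0 in all libraries but control 3, except for 3 counts of HOXB5 in the library labelled knockdown 3.

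**Figure D1:**
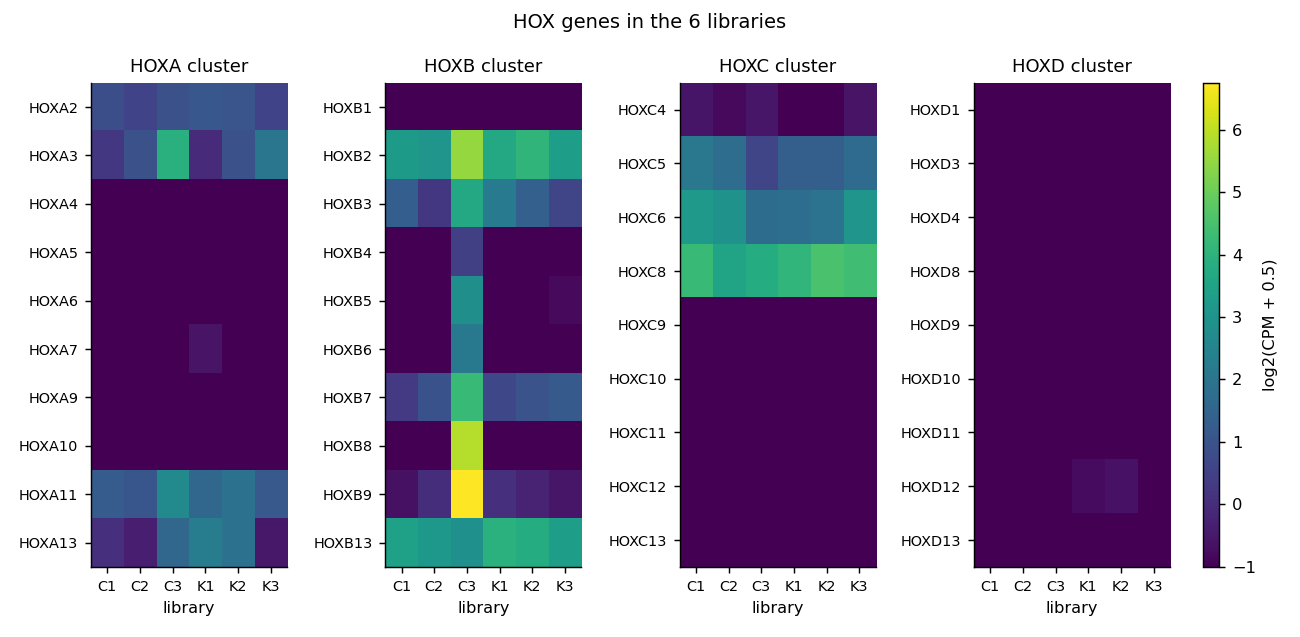
Level of 38 HOX genes (rows, by cluster and number) in control libraries C1 to C3, knockdown libraries K1 and K2 and the library labelled knockdown 3 (K3), as log2 of CPM plus 0.5 (colour; the darkest is 0 counts). The HOXD panel is dark but for HOXD12, and HOXB2 to HOXB9 are brightest in C3.

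Levels of different genes were compared per kilobase of exon. HOXC8, which patterns the thoracic region, was at 5.76 to 11.9 CPM per kilobase over the 6 libraries and was the highest HOX gene in control 1, control 2, knockdown 1, knockdown 2 and the library labelled knockdown 3. HOXB2, a gene of the hindbrain, followed in these 5 libraries with 4.98 to 10.4 CPM per kilobase, so that the ranges of the pair overlapped. HOXB13, a gene of the prostate and hindgut, came next in these libraries, with 1.99 to 4.34 over all 6. HOXC6, with 0.874 to 2.67, followed in control 1, control 2 and the library labelled knockdown 3, but was below HOXA11 in knockdown 1 and 2, where HOXA11 had 1.06 and 1.43. In control 3 the order was another one, with HOXB9 at 41.3, HOXB8 at 32.1, HOXB2 at 29.2 and HOXB7 at 13.4 CPM per kilobase, all above HOXC8 at 7.05.

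Summed by cluster, HOX counts were dominated by HOXB in control 3 only. The 39 genes together had 58.6 and 44.5 CPM in control 1 and 2, 302 in control 3, 65.7 and 72.2 in knockdown 1 and 2 and 60.9 in the library labelled knockdown 3. Of these, HOXB genes had 22.1, 18.7 and 260 CPM in control 1, 2 and 3, 33.2 and 33.5 in knockdown 1 and 2 and 22.1 in the library labelled knockdown 3. HOXB thus held 86% of the HOX counts of control 3 and 36.3% to 50.5% of those of the other libraries. The HOXC sum ran from 17.4 CPM in control 3 to 31.2 in the library labelled knockdown 3, with control and knockdown libraries interleaved. The HOXA sum was 4.86 and 5.31 CPM in control 2 and 1, 7.64 in the library labelled knockdown 3, 10.7 and 10.8 in knockdown 1 and 2 and 25.1 in control 3.

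**Figure D2:**
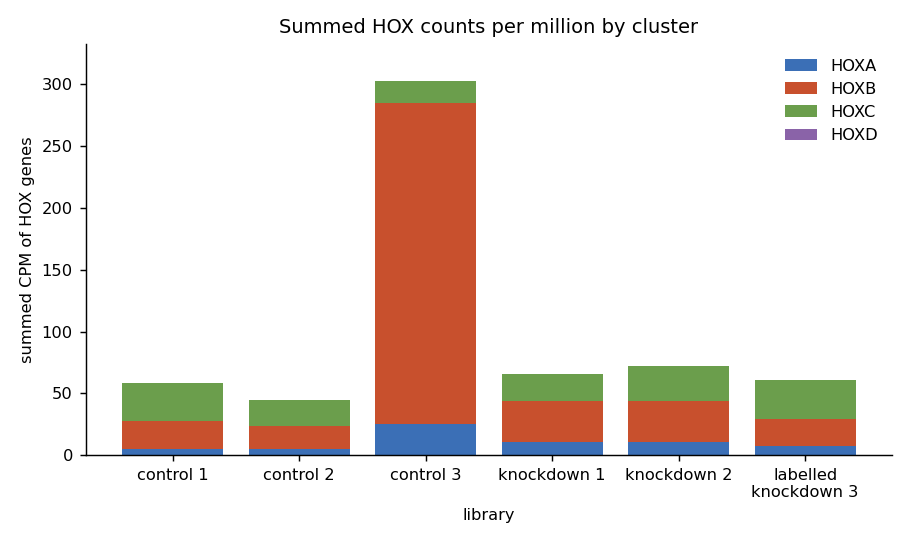
Summed CPM of HOX genes (vertical axis) in each library (horizontal axis), stacked by cluster. Control 3 reaches 302 CPM, of which 260 are HOXB, while the other 5 libraries lie between 44.5 and 72.2 CPM.

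The HOXB stretch from HOXB2 to HOXB9 was higher in control 3 than in any other library. HOXB8, a thoracic gene that is also active in blood progenitors, had 1875 counts in control 3 (58.6 CPM) and none in the other 5 libraries. Against the limit of 3 counts over the sum of those 5 libraries, it was at least 3557-fold higher. This bound takes the reads as listed. HOXB8 shares its assembled locus with HOXB9, so some of its reads may be listed under HOXB9. HOXB9, its neighbour, had 3409 counts in control 3 and 4, 14, 20, 16 and 8 in control 1, control 2, knockdown 1, knockdown 2 and the library labelled knockdown 3. Control 3 was 313-fold above the other 5 together (exact 95% interval 243 to 409). No other library came near these values, and the knockdown and control libraries overlapped in HOXB9 once control 3 was set aside.

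HOXB5, HOXB6 and HOXB4 showed the same single high library at lower levels. HOXB5 had 214 counts in control 3, 3 in the library labelled knockdown 3 and 0 in the other 4, a ratio of 406 (exact 95% interval 137 to 1984). HOXB6 had 125 counts in control 3 only, at least 237-fold higher, and HOXB4 had 28, at least 53.1-fold higher. These intervals and bounds cover counting error only and take the reads as listed, and none is a test of control against knockdown.

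HOXB7, HOXB3 and HOXB2 were present in every library and were also highest in control 3. HOXB7 had 21, 40 and 589 counts in control 1, 2 and 3, 40 and 70 in knockdown 1 and 2 and 76 in the library labelled knockdown 3, and control 3 was 13.6-fold above the others (exact 95% interval 11.7 to 15.8). HOXB3, expressed in the hindbrain and pharyngeal arches, was at 56, 19 and 398 counts in control 1 to control 3, at 150 and 99 in knockdown 1 and 2 and 45 in the library labelled knockdown 3, a ratio of 6.14 (5.31 to 7.09). HOXB2 was at 252, 216 and 1461 counts in control 1 to control 3, at 448 and 764 in knockdown 1 and 2 and 399 in the library labelled knockdown 3, a ratio of 4.0 (3.74 to 4.28). As listed, the ratio of control 3 to the others was thus 4.0 to 13.6 in these 3 genes. It was 53.1 or more in HOXB4, HOXB5, HOXB6, HOXB8 and HOXB9. Since HOXB3 to HOXB6 share an assembled locus, the difference in ratio between HOXB3 and HOXB4, HOXB5 and HOXB6 is uncertain. HOXB13 did not share it, since control 3 had its lowest level of all 6 libraries (6.90 CPM, against 8.28 to 15.1).

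**Figure D3:**
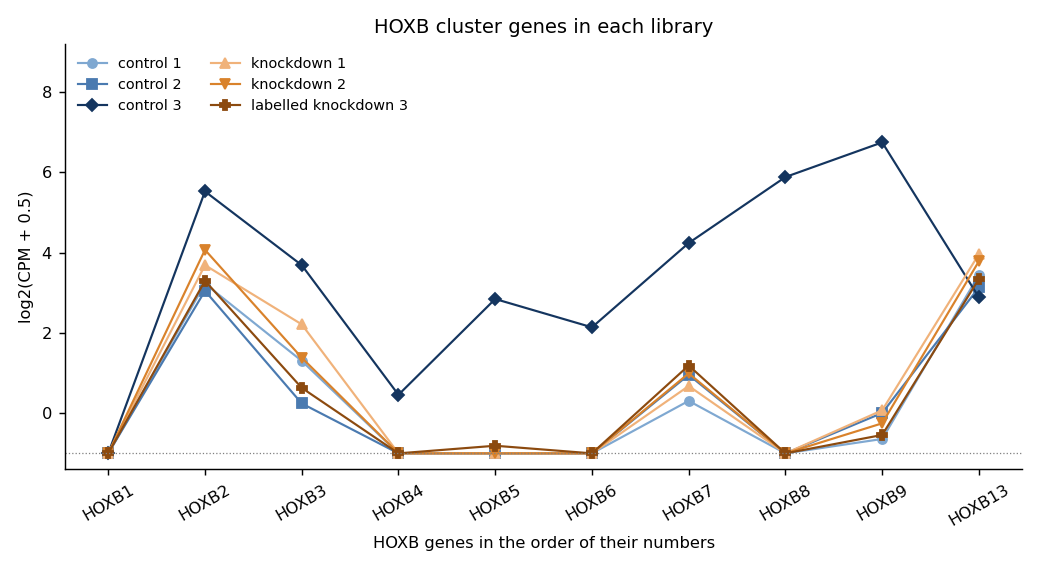
Level of the 10 HOXB genes, in the order of their numbers (horizontal axis), as log2 of CPM plus 0.5 (vertical axis) with 1 line per library; the dotted line marks 0 counts. Control 3 lies above the other 5 libraries from HOXB2 to HOXB9 and below them at HOXB13.

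The noncoding RNAs of the HOXB cluster were split in the same libraries. HOXB-AS3, an antisense transcript of the middle of the cluster, had 178 counts in control 3 and 0 elsewhere (at least 338-fold higher), and HOXB-AS4 had 24 and 0 (at least 45.5-fold higher). The hairpin rows MIR10A and MIR196A1, which lie in this cluster, had 2 counts each, also in control 3 alone. HOXB-AS1, which the table lists under the same assembled locus as HOXB-AS3, did not share this pattern, with 50 counts in control 3 and 30 to 141 in the other libraries. The labels do not give the strand of the libraries, so antisense reads and those of an overlapping HOX gene cannot be told apart.

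A rule chosen after these values were seen set the HOXB genes beside the rest of the table. Of 17304 genes with at least 10 counts in 1 library, 130 (0.751%) were at least 4-fold higher in control 3 than in each of the other 5 libraries, with 0.5 CPM added to each value. The HOX genes among them were HOXB5, HOXB6, HOXB7, HOXB8 and HOXB9. HOXB5, HOXB6 and HOXB8 reach 10 counts in control 3 alone, so their number is a description and is not read against that share. None of the other 5 libraries had a HOX gene that was 4-fold above or below all others. Of 10 protein-coding genes on both sides of the HOXB cluster, none met the rule. SKAP1 had 10 counts in control 3 and none elsewhere, COPZ2 had 3.59 CPM in control 3 and 0.576 to 3.64 in the others, NFE2L1 had 127 and 47.4 to 73.2, and UBE2Z had 235 and 206 to 233.

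HOXA3 was the HOXA gene with the most uneven libraries. It had 20, 39 and 465 counts in control 1, 2 and 3, 17 and 65 in knockdown 1 and 2 and 156 in the library labelled knockdown 3. Control 3 and the library labelled knockdown 3 were above the other 4, and control 3 was 8.91-fold above the other 5 together (exact 95% interval 7.69 to 10.3). HOXA11, a gene of the limb and kidney, was at 54, 45 and 195 counts in control 1 to control 3, at 88 and 154 in knockdown 1 and 2 and 75 in the library labelled knockdown 3, with control 3 again highest.

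The first comparison asked which HOX genes differ where PPP2R1A was low, with knockdown 1 and 2 set against control 1 and 2. Of 39 HOX genes 13 passed the filter on low counts and were tested, and 1 was called higher and 1 lower at an adjusted p under 0.05. Over all genes tested the shares were 7.15% higher and 6.41% lower, so the HOX counts were near the background. At an unadjusted p under 0.05 there were 6 of the 13 HOX genes and 5128 of all 15596 genes. HOXA13 was the gene that rose and HOXC6 the gene that fell. The other 11 tested HOX genes did not pass, and the median log2 fold change of the 13 was 0.50, against 0.0115 over all genes tested.

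HOXA13 patterns the most distal limb, hindgut and urogenital tract. It had 0.563 and 0.288 CPM in control 1 and 2 (mean 0.425 ± 0.194, SD, n = 2), and 4.3 and 3.28 in knockdown 1 and 2 (mean 3.79 ± 0.725, SD, n = 2). The pairs did not overlap. The log2 fold change was 3.14 ± 0.418 (SE), 8.8-fold, with an adjusted p of 0.03 from edgeR's quasi-likelihood test. Control 3, with PPP2R1A at the control level, had 2.44 CPM and the library labelled knockdown 3 had 0.211, so that control 3 was closer to knockdown 1 and 2 and the library labelled knockdown 3 was closer to control 1 and 2.

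HOXC6, a gene of the thoracic region, went the other way. It had 8.69 and 7.17 CPM in control 1 and 2 (mean 7.93 ± 1.08, SD, n = 2) and 3.01 and 3.4 in knockdown 1 and 2 (mean 3.21 ± 0.282, SD, n = 2), again without overlap. The log2 fold change was -1.31 ± 0.204 (SE), 2.48-fold lower, with an adjusted p of 0.0362 from edgeR's quasi-likelihood test. As with HOXA13, control 3 was closer to knockdown 1 and 2, at 2.84 CPM, and the library labelled knockdown 3 was within the range of control 1 and 2, at 7.75 CPM.

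Neither gene passed when the replicate number was fitted as a block, with log2 fold changes of 3.18 for HOXA13 and -1.31 for HOXC6 and adjusted p of 0.0644 and 0.0814 from edgeR's quasi-likelihood test, and that fit called 0 of all 15596 genes. Without control 1, control 2, knockdown 1 or knockdown 2, the log2 fold change of HOXA13 was 3.69, 2.74, 2.93 and 3.33 and that of HOXC6 was -1.17, -1.44, -1.22 and -1.4; no gene of the whole table was called in any of these 4 fits, so the loss of both calls there is not particular to HOXA13 or HOXC6.

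Epithelial, fibroblast, leukocyte and endothelial marker genes moved beside these values. In knockdown 1 and 2 against control 1 and 2, the keratins KRT8 (4987 and 5664 against 772 and 899 CPM) and KRT18 were called higher and the keratin KRT19 lower (15.7 and 11.6 against 43 and 46.1 CPM). COL3A1, CDH5 and VWF were called higher, and the leukocyte marker CD68 lower (0.193 and 0.319 against 1.48 and 1.01 CPM). VIM had 3737 and 4750 against 7341 and 9939 CPM and was not called (adjusted p of 0.057 from edgeR's quasi-likelihood test). In control 3, KRT8, KRT18, KRT19, COL3A1 and VIM were all above control 1 and 2, CDH5 had no count, and the part of these markers in the HOX values was not tested.

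HOXB3 had the largest fold change of those not called, 1.23 ± 0.658 (SE), with an adjusted p of 0.288 from edgeR's quasi-likelihood test, and knockdown 2 (2.11 CPM) was close to control 1 (1.97 CPM).

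HOXB2 and HOXB13 were also not called. HOXB2 had 8.86 and 7.78 CPM in control 1 and 2 and 12.4 and 16.3 in knockdown 1 and 2, a log2 fold change of 0.78 ± 0.209 (SE) with an adjusted p of 0.092 from edgeR's quasi-likelihood test. HOXB13 had 10.4 and 8.28 against 15.1 and 13.3 CPM, a log2 fold change of 0.60 ± 0.195 (SE) with an adjusted p of 0.13 from edgeR's quasi-likelihood test. Its level was 6.9 CPM in control 3 and 9.67 in the library labelled knockdown 3, so that over all 6 libraries the groups overlapped.

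A further 7 tested genes were not called either. HOXC5, which shares its locus with HOXC6, had 3.76 and 2.88 CPM in control 1 and 2, 2.04 in both knockdown 1 and knockdown 2, 1.03 in control 3 and 2.79 in the library labelled knockdown 3. As for HOXC6, control 1 was highest and control 3 lowest. Its log2 fold change was -0.71 ± 0.235 (SE), with an adjusted p of 0.134 from edgeR's quasi-likelihood test. HOXC8 had 18.5 and 10.9 CPM in control 1 and 2 and 16.7 and 22.4 in knockdown 1 and 2, so that the pairs overlapped, with 13.3 in control 3 and 20.4 in the library labelled knockdown 3. HOXA2, a gene of the hindbrain and cranial neural crest, was at 1.3, 0.972 and 1.41 CPM in control 1 to control 3, at 1.65 and 1.57 in knockdown 1 and 2 and at 0.984 in the library labelled knockdown 3, which lay among the controls. In the first comparison HOXA2, HOXA11 and HOXC8 had log2 fold changes of 0.50, 0.69 and 0.40, HOXA3 of -0.18, HOXB7 of 0.25 and HOXB9 of 0.45, and their adjusted p was 0.167 to 0.883 from edgeR's quasi-likelihood test.

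**Figure D4:**
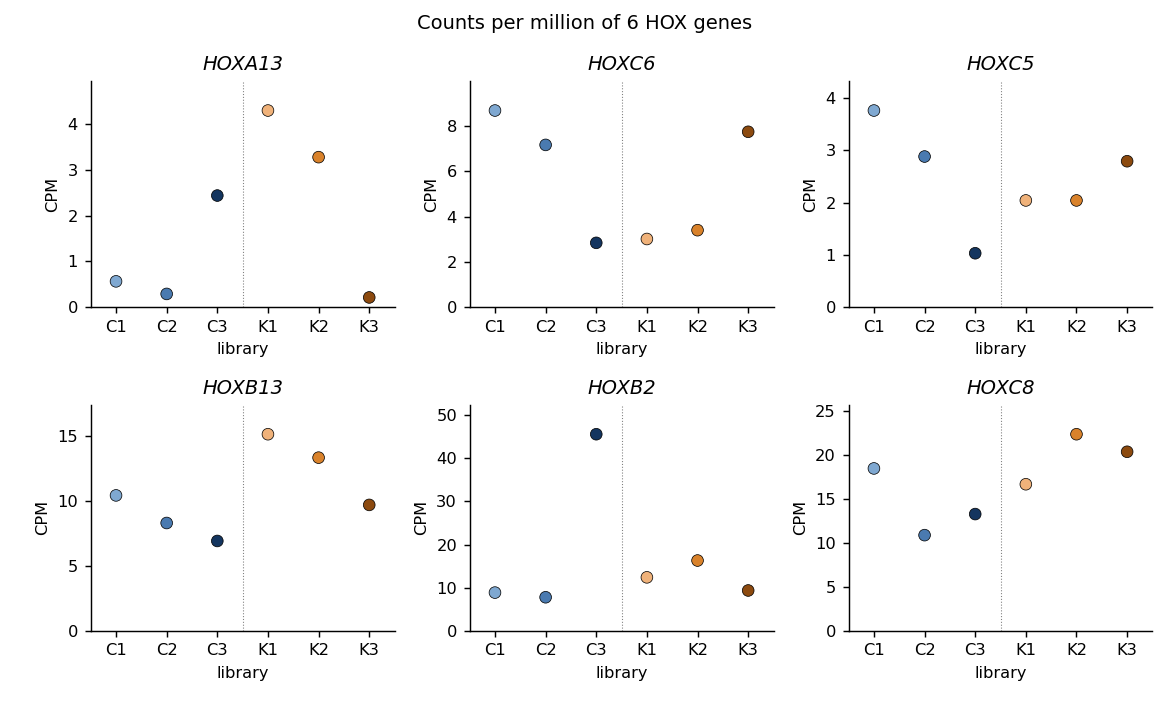
CPM (vertical axis, from 0) of 6 HOX genes in each library (horizontal axis: C1 to C3 control, K1 and K2 knockdown, K3 the library labelled knockdown 3), 1 point per library. For HOXA13 and HOXC6 the C3 point is closer to K1 and K2 and the K3 point closer to C1 and C2, while HOXB2 is highest in C3 at 45.6 CPM.

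The second comparison set all 3 libraries labelled knockdown against all 3 controls. No HOX gene of the 13 tested was called in either direction by edgeR's quasi-likelihood test, where 0% of all 15386 genes were called higher and 0.0065% lower. At an unadjusted p under 0.05 there were 2 of the 13, HOXB9 among them, and 1267 of all genes tested. DESeq2 and limma-voom also called none of the 13.

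The 4 HOX genes with the largest fold changes over all libraries were HOXB9 with a log2 fold change of -6.63 ± 2.53 (SE), HOXB7 with -2.23 ± 1.2, HOXA3 with -1.59 ± 1.28 and HOXA13 with 1.23 ± 1.17. None passed, with adjusted p of 0.581, 0.593, 0.665 and 0.712 from edgeR's quasi-likelihood test. Without control 3 the values of HOXB9, HOXB7 and HOXA3 became 0.14, 0.41 and 0.79, so their direction turned without that 1 library. The median log2 fold change of the 13 HOX genes was -0.37, against -0.00883 over all genes tested.

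The third comparison tested whether the difference between knockdown and control was the same in replicate 3 as in replicates 1 and 2. It asked this of the label, since the library labelled knockdown 3 had PPP2R1A near the controls, and each single library of replicate 3 was taken to vary like the others. Of the 13 HOX genes, 1 was higher (HOXC6) and 3 were lower (HOXA13, HOXB2 and HOXB9) at an adjusted p under 0.05. Over all genes tested, 2.35% were higher and 2.19% lower.

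HOXA13 had a log2 ratio of 2.82 and 3.28 between the libraries numbered 1 and 2, and of -3.22 between the library labelled knockdown 3 and control 3. The difference of -6.65 ± 0.757 (SE) had an adjusted p of 0.0404 from edgeR's quasi-likelihood test. HOXC6 showed the opposite signs, with -1.51 and -1.06 in the first numbers and 1.43 in replicate 3, a difference of 2.75 ± 0.354 (SE) with an adjusted p of 0.0446 from edgeR's quasi-likelihood test. For both genes, control 3 was closer to knockdown 1 and 2, and the library labelled knockdown 3 was closer to control 1 and 2.

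HOXB2 and HOXB9 were called here with their highest level in control 3. For HOXB2 the log2 ratios were 0.48 and 1.06 in the first numbers and -2.28 in replicate 3, a difference of -3.07 ± 0.366 (SE) with an adjusted p of 0.0424 from edgeR's quasi-likelihood test. For HOXB9 they were 1.63, -0.50 and -8.78, a difference of -9.58 ± 1.16 (SE) with an adjusted p of 0.0432 from edgeR's quasi-likelihood test. In the library labelled knockdown 3, HOXB2 was at 9.35 CPM and HOXB9 at 0.187 CPM, against 7.78 to 8.86 and 0.141 to 0.504 CPM in control 1 and 2. HOXB4, HOXB5, HOXB6 and HOXB8, which have counts in control 3 and next to none elsewhere, did not pass the filter of the main fit and have no test in it.

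The other 9 tested HOX genes were not called in this comparison. HOXB3 had the next largest difference, -4.79 ± 1.17 (SE), with an adjusted p of 0.0997 from edgeR's quasi-likelihood test. With the replicate number as a block, none of the 4 was called (adjusted p of 0.0955 to 0.0988 from edgeR's quasi-likelihood test), nor was any gene of the table. Without control 1, control 2, knockdown 1 or knockdown 2 none of the 4 was called either, with differences of -7.2 to -6.25 for HOXA13, -3.26 to -2.86 for HOXB2, -10.74 to -8.93 for HOXB9 and 2.61 to 2.89 for HOXC6 (adjusted p of 0.0805 to 0.141 from edgeR's quasi-likelihood test). Over all genes, 0 were called without either control, 37 higher and 17 lower without knockdown 1, and 19 and 6 without knockdown 2, so the loss is not particular to HOX genes.

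**Figure D5:**
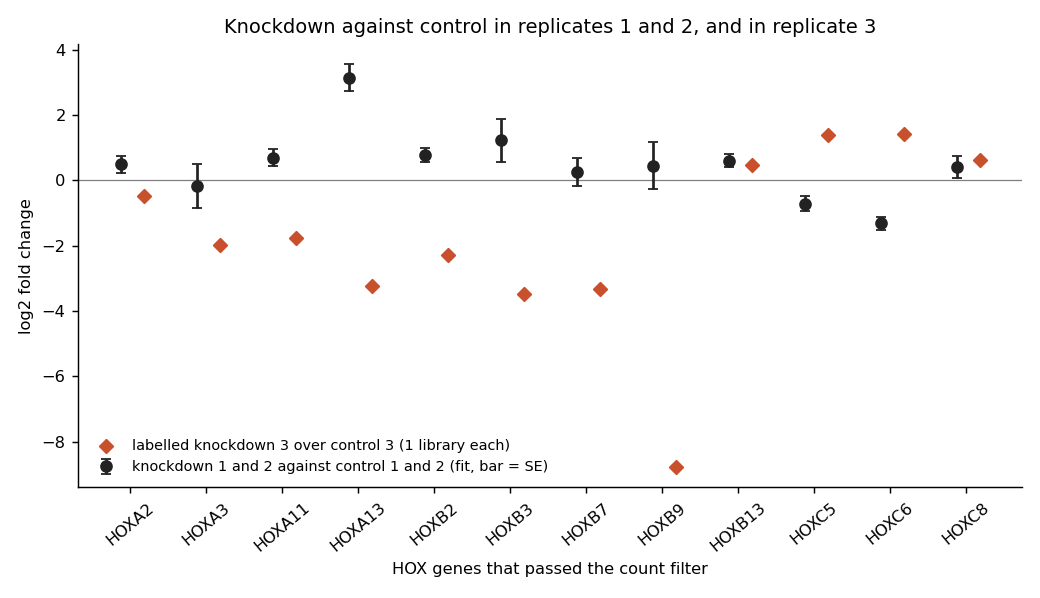
Log2 fold change (vertical axis) of 12 tested HOX genes for knockdown 1 and 2 against control 1 and 2 (circles, bar = SE of the fit, n = 2 libraries a group) and log2 ratio of the library labelled knockdown 3 over control 3 (diamonds, 1 library each, no error). HOXA13 (3.14 and -3.22) and HOXC6 (-1.31 and 1.43) have opposite signs in the pair, and the lowest diamond is HOXB9 at -8.78.

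The noncoding RNAs of the clusters were a list of 27, of which 26 were in the table and 4 passed the filter. None of the 4 was called in any of the 3 comparisons. HOXB-AS1 had 1.48, 1.08 and 1.56 CPM in control 1, 2 and 3, 2.92 and 3 in knockdown 1 and 2 and 2.39 in the library labelled knockdown 3. All 3 controls were thus below all 3 libraries labelled knockdown, and the share of all genes ordered in this way was not counted. The log2 fold change of HOXB-AS1 was 1.2 ± 0.255 (SE) in the first comparison, with an adjusted p of 0.0594 from edgeR's quasi-likelihood test, and 1.01 ± 0.282 (SE) over all 6 libraries, with 0.581. HOTAIRM1, a noncoding RNA of the HOXA cluster, was at 3.97, 3.35 and 1.34 CPM in control 1 to control 3, at 2.7 and 1.92 in knockdown 1 and 2 and 3.28 in the library labelled knockdown 3, with control 1 highest and control 3 lowest as for HOXC5 and HOXC6. HOTAIR of the HOXC cluster had no count, and HOTTIP, beside HOXA13, had 8 counts each in knockdown 1 and 2 and 0 to 2 in the other libraries.

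Genes that act on or with HOX genes were read from lists chosen for their known roles, against the shares of 7.15% and 6.41% given above for the first comparison. Of 32 Polycomb genes tested, 2 rose, 5 fell and 25 did not pass, with a median log2 fold change of -0.23. BMI1, a ring-finger subunit of Polycomb complex 1, rose from 4.47 and 3.46 CPM in control 1 and 2 to 21 and 16.4 in knockdown 1 and 2, and JARID2, a subunit of complex 2, rose by 1.03 on the log2 scale. The falls were EZH2, the methyltransferase of complex 2 (100 and 91.1 against 58.5 and 53.8 CPM), the histone binders RBBP4 and RBBP7, and CBX2 and PHC2 of complex 1. Their adjusted p was 0.0238 for BMI1, 0.0348 for JARID2 and 0.0313 for EZH2 from edgeR's quasi-likelihood test. BMI1 had 5.62 CPM in control 3 and 3.58 in the library labelled knockdown 3, both near control 1 and 2. RBBP4, RBBP7 and PHC2 also had control 3 closer to control 1 and 2. For CBX2 (28.7 CPM in control 3, 54.4 in the library labelled knockdown 3), EZH2 (69.1 and 83.7) and JARID2 (9.56 and 7.1), control 3 was closer to knockdown 1 and 2. CBX2 alone of the 32 was called in the third comparison, higher (adjusted p of 0.0362 from edgeR's quasi-likelihood test), against 2.35% of all genes. A link to the HOX values was not tested. Of 24 tested Trithorax, KMT2 and DOT1L-type genes, none was called. At an unadjusted p under 0.05 there were 4 of the 24, against the 5128 of 15596 genes given above.

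Of 14 tested retinoic acid genes, 3 rose and 2 fell. ALDH1A1, a retinaldehyde dehydrogenase that makes retinoic acid, had 1590, 1357 and 1072 CPM in control 1, 2 and 3, 16.6 and 14.8 in knockdown 1 and 2 and 1342 in the library labelled knockdown 3. Its log2 fold change in the first comparison was -6.56 ± 0.159 (SE), with an adjusted p of 0.00758 from edgeR's quasi-likelihood test, and the receptor subunit RXRB fell by 0.89 on the log2 scale. Those that rose were STRA6, the cell-surface retinol carrier (9.57 and 8.32 against 38.3 and 34.9 CPM), and the related dehydrogenases ALDH1A3 and ALDH1A2. HOXA2 and HOXB2, low-numbered genes that retinoic acid activates in the embryo, had log2 fold changes of 0.50 and 0.78 beside these and were not called. Of 12 retinoic acid genes tested in the third comparison, ALDH1A1 alone was called, higher, against 2.35% of all genes. Its difference was 6.87 ± 0.245 (SE), with an adjusted p of 0.0162 from edgeR's quasi-likelihood test.

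Of 7 tested TALE cofactors, PKNOX2 fell and none rose. PKNOX2 had 2.32 and 1.76 CPM in control 1 and 2, 0.414 and 0.234 in knockdown 1 and 2, 0.875 in control 3 and 1.59 in the library labelled knockdown 3, with a log2 fold change of -2.67 ± 0.402 (SE) and an adjusted p of 0.0347 from edgeR's quasi-likelihood test. MEIS2 and MEIS3 had log2 fold changes of 1.02 and 1.00 and were not called (adjusted p of 0.0579 and 0.0609 from edgeR's quasi-likelihood test). MEIS3 had 2.06 CPM in control 3, against 20.4 to 51.8 in the other 5 libraries. Of the 7 cofactors it alone was called in the third comparison, higher, against 2.35% of all genes. The difference was 2.96 ± 0.392 (SE), with an adjusted p of 0.0462 from edgeR's quasi-likelihood test. Of 5 tested relatives outside the clusters, among them the pancreas gene PDX1 (0.375 to 0.717 CPM), none was called.

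The genes beside the clusters were read for the same comparison. Beside HOXA, JAZF1 rose, from 3.66 and 3.24 CPM in control 1 and 2 to 11.3 and 14.4 in knockdown 1 and 2 (log2 fold change 1.89 ± 0.21, SE, adjusted p of 0.0243 from edgeR's quasi-likelihood test), and the other 7 tested did not pass. JAZF1 had 2.34 CPM in control 3, where HOXA13 had 2.44, and 2.69 in the library labelled knockdown 3. None of 8 tested genes beside HOXB, 9 beside HOXC and 8 beside HOXD was called, with 1 of each at an unadjusted p under 0.05.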

How the data were processed

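RNA of MiaPaCa2-CasRx cells (6 samples, 3 control and 3 labelled knockdown) was made into TruSeq libraries. The authors used FastQC, STAR and StringTie, per the labels, and deposited raw counts per gene; for the versions, the genome build, the annotation and the strand setting the record is: not given in the sources used here. Of 42540 rows, 159 exact copies of a row were left out, and no HOX symbol occurred on more than 1 row. CPM used effective library sizes (TMM). The counts were tested across all genes with edgeR 4.0.16 (filterByExpr, glmQLFit, glmQLFTest, R 4.3.3), with Benjamini-Hochberg adjustment over all genes tested and a threshold of 0.05. DESeq2 1.42.0 and limma-voom (limma 3.58.1), other normalizations, no filter, summed rows, a replicate block and left-out libraries were alternatives. The fits were tested on simulated data first. HOX genes past the filter are given by library; statistics are given for those called and for the 4 with the largest fold change in each fit, and up to 4 genes with the smallest p from each other list. Exon lengths and homeoboxes came from GENCODE v29, and the promoter from RefSeq. The members and lists were chosen with earlier results of these data known. The study describes the replicates as independent and generated over 3 weeks. In the comparison over all 6 libraries, a p-value measures the spread among these libraries. For knockdown 1 and 2 against control 1 and 2, it measures only the spread within control 1 and 2 and within knockdown 1 and 2. The replicate 3 comparison also rests on that spread, since control 3 and the library labelled knockdown 3 each stand alone in their group. Libraries with the same replicate number share a number in their library names, so the replicate number may mark a shared sampling time. Their deviations from the group means had correlations of -0.0182, -0.0324 and -0.122 for numbers 1, 2 and 3 (0.0711 within the libraries numbered 1 and 2). The value with the block is given for the HOX calls it ends. With the block 0 of all genes were called in each comparison, so the calls in the other lists and in the markers ended too. Some genes and sequences are not reported here.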

Additional observations from a re-analysis of the deposited data

Results flagged for a closer look

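For 4 HOX genes the difference between knockdown and control was not the same in replicate 3 as in replicates 1 and 2, by the test of the difference itself (edgeR's quasi-likelihood test over all genes tested). The differences on the log2 scale were -6.65 for HOXA13, -3.07 for HOXB2, -9.58 for HOXB9 and 2.75 for HOXC6, with adjusted p of 0.0404, 0.0424, 0.0432 and 0.0446. For HOXB2 and HOXB9, control 3 was above all other libraries. For HOXA13 and HOXC6, control 3 and the library labelled knockdown 3 were both far from the other libraries of their group, and in that library PPP2R1A was at 544 CPM, against 590 to 647 in the controls. The labels and the weeks of sampling do not separate passage, week and library here, so these cannot be told apart.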

How the results depend on the processing

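Of the HOX genes in single fits, 417 values under an alternative kept their direction and their side of the threshold, 33 kept the direction only, 4 newly passed and 14 turned. In the first comparison, DESeq2 called 2 HOX genes higher. Without a filter on low counts 0 were lower, where 822 of all 24130 genes were called higher and 558 lower. In the test of replicate 3 against replicates 1 and 2, DESeq2 called 6 lower. Without a filter 0 were higher there, where 202 of all 25060 genes were called higher and 176 lower. With a replicate block, 0 HOX genes were called higher and 0 lower in the first and in the replicate 3 comparison, and 0 over all 6 libraries. Over all genes, DESeq2 called 1847 higher and 1853 lower in the first comparison (1115 and 999 by edgeR), 127 and 65 over all 6 libraries (0 and 1) and 1197 and 1137 in the replicate 3 comparison (362 and 337), while edgeR with the block called 0 in each. Leaving out any 1 of control 1, control 2, knockdown 1 or knockdown 2 gave 0 calls in each direction in the first and in the replicate 3 comparison; over all genes these fits called 0 in the first comparison and, in the replicate 3 comparison, 0 without a control, 37 higher and 17 lower without knockdown 1 and 19 and 6 without knockdown 2, since fewer samples are fitted, and the lone library of a group is assumed to vary like the others. The 0 HOX calls over all 6 libraries were the same under each alternative run. Without the library labelled knockdown 3, that comparison called 363 higher and 341 lower of all 15922 genes. With 1 library left out, the log2 fold changes of genes that turned ran from -1.16 to 0.41 for HOXA3, -0.16 to 0.81 for HOXB7 and -0.20 to 1.63 for HOXB9 in the first comparison. Over all 6 libraries they ran from -0.69 to 0.49 for HOXA11, -2.58 to 0.79 for HOXA3, -1.11 to 0.60 for HOXB2, -1.67 to 0.87 for HOXB3, -2.77 to 0.41 for HOXB7, -7.22 to 0.14 for HOXB9 and -0.54 to 0.23 for HOXC5, and HOXC5 was 0.03 with limma-voom. All of these but HOXC5 turned without control 3. In the replicate 3 comparison they ran from -0.28 to 0.05 for HOXB13 and -0.22 to 0.55 for HOXC8. The cause of these turns was not tested. A filter on the 4 groups of that comparison, chosen after seeing the data, called 1 HOX gene higher and 3 lower. Over all 16967 genes tested with that filter, 320 were higher and 298 lower. Depth limits the 19 genes at 0 to at most 0.0638 to 0.108 CPM, and 2 libraries a group limit the first comparison.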
